A study of Mus musculus with 4 samples.

Results

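The probes examined here are those that the array names by a genomic position and a strand in place of a transcript, a form the manufacturer uses for long noncoding RNA regions. Every probe outside the controls whose name has the form chromosome, start, end and the letter F or R was taken, on the mm9 build that the scanner files name. This gave 16181 of the 55681 probes, in 4607 regions, and 16142 of them had a value on all 4 arrays. Gene expression was measured with 1 one-colour array for each of 4 mouse ES cell lines. Parental ES cells (EB3) were set beside Nup98-HoxA9 ES clone #1 and clone #9, which stably express a FLAG-tagged fusion of the N-terminal, FG-repeat part of human Nup98 with the C-terminal part of HoxA9, and beside HoxA9-Ct ES, which expresses the C-terminal HoxA9 part with the homeodomain alone. The 3 transgenic lines were made with a Tol2 transposon vector and hygromycin selection, all 4 lines were kept without feeder cells on gelatin with LIF, and each transgenic line is a single clone. Sources used here do not say whether the arrays come from separate cultures, so every spread given is that between the 2 clones only.

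Long noncoding RNAs are transcripts that are not translated into protein. Some act on the chromatin near the place where they are made, and some work elsewhere in the nucleus or in the cytoplasm. The Hox clusters, which hold the genes for the transcription factors of the body axis, carry several such transcripts, among them Hotair and Hottip, and in ES cells most of the cluster is kept silent by Polycomb complexes. A fusion of Nup98 with a Hox homeodomain protein drives leukemia and keeps Hox genes active, and the study placed it in ES cells to ask where it binds and which genes respond.

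The regions were tiled with 1 to 10 probes, with a median of 3, and 3917 regions had 2 or more probes. Their length had a median of 10676 bases and ran from 62 to 7128487 bases. The 4607 names cover 3540 positions, of which 1067 are present on both strands, and merging every overlap leaves 2223 separate stretches on 20 chromosomes. Neighbouring names can therefore read the same transcript, and they are not independent of each other. The letters F and R are read here as the forward and reverse strand, which the files do not define. No gene is paired with a region in the files, so regions are called by position.

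Position-named probes were detected less often than the rest of the array. The scanner software called 32.7% of them well above background for the parental line, 33.1% for clone #1, 34.8% for clone #9 and 32.1% for the HoxA9-Ct line. The same call was given to 56.4%, 57.2%, 59.9% and 56.6% of the other spots. Over the 4 lines together, 4517 position-named probes (27.98%) were well above background on every array, 1835 (11.4%) on some and 9790 (60.6%) on none. The shares for the other probes were 53.3%, 7.998% and 38.7%. Detection was spread over the genome, and the share of probes above background on all arrays lay between 20.2% and 33.9% on each chromosome.

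A region was taken as expressed in ES cells when 2 or more of its probes were well above background in all 4 lines. By this rule 1109 of 3915 regions with at least 2 usable probes (28.3%) were expressed. In 443 regions every probe was above background in all lines, and in 1379 no probe was above it in any line. Of the 1109 expressed regions, 666 also held a probe that was dim in at least 1 line, so a region was often read by some of its probes and not by others. With the more lenient call of a signal that is positive and significant the number was 1894.

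At 878 positions with 2 or more usable probes on each strand, both strands were expressed at 133, 1 strand at 353 and neither at 392. The reverse strand alone was expressed at 227 positions and the forward strand alone at 126. Where both strands were expressed, the mean ratio of the clones to parental ES on one strand correlated with that on the other at 0.44 (Pearson) and 0.41 (Spearman), across 133 positions that share the same 4 arrays. This is a description of positions, which are not independent replicates.

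The 5 expressed regions with the highest mean parental signal were nearly level over the lines. The first was chr6:116123643-116124550 on the forward strand, whose 3 probes had a mean log2 signal, relative to the 75th percentile of the array, of 8.57 for the parental line, 8.46 for clone #1, 8.28 for clone #9 and 8.51 for the HoxA9-Ct line. Next came chr17:39982023-39983277 and chr17:39983902-39985688, then chr17:17481706-17482457 on the reverse strand and chr17:39960567-39992817, which overlaps both of the chr17 regions named before it. Over these regions the range across the 4 lines was 0.22 to 0.43 on the log2 scale. A signal also depends on the probe, so this order describes brightness on the array and not molar amount. The files pair no gene with these positions, so which RNA their probes read, long noncoding or other, was not determined.

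The spread between the probes of a region and the spread between regions were summarized by unlike measures. The first is a median of SDs and the second a single SD, so their sizes are not directly comparable. Over the 1109 expressed regions, the SD of the log2 ratio (mean of the clones over parental ES) between the probes of 1 region had a median of 0.14, and the SD between region means was 0.39. For HoxA9-Ct ES these values were 0.15 and 0.27. The clones themselves differed at a probe by a median of 0.23. Among position-named probes above background in all lines the median log2 ratio to parental ES was -0.06 for clone #1, -0.20 for clone #9 and 0.00 for the HoxA9-Ct line. It was -0.02, -0.10 and 0.00 at the other probes. The 5th and 95th percentiles of the mean of the clones were -0.81 and 0.43 for position-named probes and -0.58 and 0.70 for the others.

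By the rule used here, more than 2-fold differences from parental ES in both clones were mostly downward. The brighter side had to be well above background. This asks both clones of a higher probe and only the parental array of a lower one. Of the position-named probes, 71 were higher in both clones and 201 were lower. This is 0.440% and 1.25% of the 16142 probes, where all probes of the array gave 1.03% and 0.993%. Higher and lower probes thus did not meet equal requirements. At 60 of the 71 parental ES was not above background, and at 119 of the 201 neither clone was. Among probes above background in at least 1 line the shares were 1.12% higher and 3.16% lower, against 1.88% and 1.81% for the whole array. Among probes above background in all 4 lines, 11 position-named probes (0.244%) were higher and 52 (1.15%) lower, and the other probes gave 1.29% and 0.695%.

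The spread of these calls over the array surface and over the lines was uneven. Between the clones themselves, 329 position-named probes (2.04%) were over 2-fold higher in clone #9 and 267 (1.65%) in clone #1, where all probes gave 3.24% and 1.11%. Regions of agreeing probes numbered 53 (1.35%) and 36 (0.920%), where all names with 2 or more probes gave 1.62% and 0.485%. At 86 of the 201 lower probes (42.8%), parental ES was the only line above background, so these differences rest on 1 array. Of those 86 probes, 45.3% sit among the highest eighth of spot row numbers, called the end rows from here on, which hold 12.6% of the position-named probes. The other 115 lower probes had 21.7% in these rows, and the 71 higher probes had 15.5%. The part of array position in these differences was not tested, and without these rows 60 probes were higher and 137 lower. Signals seen in 1 line alone were found in every line, at 157 probes for the parental line, 191 for clone #1, 337 for clone #9 and 138 for the HoxA9-Ct line.

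With limma at a Benjamini-Hochberg adjusted p of 0.05 over all 55562 probes, 80 position-named probes rose and 131 fell in the Nup98-HoxA9 clones against parental ES, which is 1.31% of them where 1.41% of all probes were called (0.781% higher and 0.625% lower). Against HoxA9-Ct ES, 69 were higher and 145 lower in the clones, with 1.36% of all probes called (0.673% higher and 0.688% lower). HoxA9-Ct ES had 35 higher and 37 lower than parental ES, with 0.405% of all probes called (0.216% higher and 0.189% lower). This fit has 1 residual degree of freedom and a common SD for all probes, and it gave 0 calls in each of these comparisons when only probes above background in at least 1 line were tested, where 593, 583 and 353 position-named probes had an unadjusted limma p under 0.05. The spread in this fit comes from the clones only, since parental ES and HoxA9-Ct ES have 1 array each. Those arrays are assumed to vary like the clones. Limma values for HoxA9-Ct ES against parental ES, here and below, therefore rest on no replicate of either line. The regions below were chosen by agreement between probes, and the limma value is given beside them.

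Agreement between probes was asked of each region: 2 or more probes past 2-fold the same way in both clones, with the brighter side above background and no probe past 2-fold the other way. By this rule 11 of 3915 regions (0.281%) were higher in both clones and 23 (0.587%) were lower. All names on the array with 2 or more probes gave 0.453% and 0.442%. The 11 higher regions lie in 11 separate stretches and the 23 lower regions in 20. Most differences of single probes had no such partner, as 41 regions had 1 higher probe only and 136 had 1 lower probe only. At 21 and 61 of these, another probe of the region was above background in all lines. Lone lower probes had 39.7% in the end rows and lower probes of agreeing regions 15.4%.

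One of the 11 higher regions lies inside the Hox-B cluster. The region chr11:96175764-96176029 on the forward strand, 266 bases long, is read by 3 probes, and none of them was above background in the parental or the HoxA9-Ct line. The log2 signal of its first probe was -6.12 for the parental line, -1.86 for clone #1, -2.15 for clone #9 and -6.09 for the HoxA9-Ct line. The second probe read -6.48, -1.50, -1.94 and -5.83, and the third -6.18, -2.20, -3.13 and -6.08, in the same order of lines. The region was chosen because both clones exceeded parental ES, so that difference is not a separate result. HoxA9-Ct ES was not used in the choice, and its signals, like those of parental ES, were dim. The mean of the clones was at least 4.82-fold, 5.89-fold and 3.05-fold above parental ES at these probes, where the bound is set by the lowest signal that counts as above background on the parental array.

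All 3 probes of this Hox-B region rose in limma (adjusted p = 1.2e-10, 1.5e-14 and 1.4e-07, log2 ratios of 4.12 ± 0.21, 4.76 ± 0.31 and 3.51 ± 0.66, SD between clones, n = 2), and all 3 were higher than in HoxA9-Ct ES (adjusted p = 2.5e-10, 1.7e-10 and 4.6e-07 in limma). The call was lost with quantile normalization and with probes above background in at least 1 line, where the adjusted p in limma was 0.42 to 0.52 and 0.26 to 0.45, while the log2 ratios were 3.58 to 4.86 and 3.51 to 4.76. With a normexp background correction the log2 ratios were 0.61 to 1.17 and 1 of the 3 probes passed, and with a floor at the lowest signal above background they were 1.61 to 2.56 and all 3 passed. A pair of the probes lies in the end rows, and the remaining one kept its call without those rows.

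A region on chromosome 5, chr5:149751979-149808240 on the reverse strand, was higher in both clones at 3 of its 8 probes. These 3 probes were not above background in parental ES and were at least 4.11-fold, 2.93-fold and 2.39-fold higher in the mean of the clones, and each rose in limma (adjusted p = 4.2e-10, 3.1e-09 and 2.5e-07). HoxA9-Ct ES was above background at the third of them as well, at least 1.61-fold above parental ES (adjusted p in limma = 0.0031). The other probes of the region that were above background in parental ES had mean log2 ratios between 0.34 and 1.18, so the difference was uneven along its 56262 bases.

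The most agreeing probes in any of the 11 higher regions, 4 of 5, were found at chr8:41730287-41746862 on the forward strand. The 4 probes above background read -3.30, -2.54, -3.39 and -3.71 in parental ES on the log2 scale. They read -2.17, -1.32, -2.22 and -2.40 in clone #1, -0.63, -0.59, -0.91 and -0.90 in clone #9, and HoxA9-Ct ES had -2.66, -2.23, -2.79 and -2.95. Clone #9 was the highest line at each of them, clone #1 came next, and HoxA9-Ct ES lay between clone #1 and parental ES. The median log2 ratio was 1.88 ± 0.98 (SD between clones, n = 2), and 2 of the 4 probes rose in limma (adjusted p = 0.048 and 0.020).

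Above-background signal in all lines, and so a measured fold, was also present on the X chromosome and on chromosomes 11 and 17. At chrX:98989930-98994344 on the forward strand both probes were higher in the clones, by log2 ratios of 2.22 ± 0.48 and 1.80 ± 0.22 (SD, n = 2), a 4.64-fold and a 3.49-fold difference. The first passed limma (adjusted p = 0.0080) and the second did not (adjusted p = 0.073). HoxA9-Ct ES was 0.25 and 0.05 above parental ES at these probes. At chr17:6830756-6832322 on the reverse strand the 3 probes were close to the 2-fold limit, with mean log2 ratios of 1.09, 1.06 and 1.19, and clone #1 was just under it at the second (0.98). HoxA9-Ct ES was within 0.08 of parental ES at all 3 probes, and limma called none (smallest adjusted p = 0.63).

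A probe of chr11:87841800-87858725 on the reverse strand read -4.10 for the parental line, -2.51 for clone #1, -0.94 for clone #9 and -2.99 for the HoxA9-Ct line, with clone #9 far above clone #1 (log2 ratio 2.37 ± 1.11, SD, n = 2, adjusted p in limma = 0.0030). For a second probe of this region the bound was 4.06-fold. The 2 agreeing probes of chrX:50407969-50410370 on the reverse strand were above background in the clones alone and at least 1.67-fold and 1.29-fold higher than parental ES. For chr11:119250824-119286324 on the forward strand the bounds were 1.78-fold and 2.01-fold, and for chr8:91569369-91594119 on the forward strand 2.33-fold and 2.06-fold. At the latter, 7 of the 10 probes were above background in all lines and none of those 7 was past 2-fold, so the difference stands at 2 probes of a region that is otherwise level. At chr11:120041124-120052299 on the reverse strand 2 of 10 probes agreed. Of its 7 probes above background in parental ES or in both clones, 6 were above parental ES in both clones. The mean log2 ratios of the 7 ran from 0.11 to 2.25.

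At chr2:10237649-10287591 on the reverse strand HoxA9-Ct ES was higher together with the clones, and no probe was above background in parental ES. The brightest of its 6 probes read -4.58 for the parental line, -2.91 for clone #1, -2.23 for clone #9 and -2.95 for the HoxA9-Ct line, so that all 3 transgenic lines lay above the parental line. Both clones together exceeded the parental line at least 3.26-fold, and it was at least 2.51-fold higher in HoxA9-Ct ES. This was the only one of the 11 higher regions that also met the rule in HoxA9-Ct ES.

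Among the lower regions, 1 lies on the reverse strand of chromosome 2 at chr2:154235540-154248551, where all 5 probes agreed. The 4 of them above background in every line read 1.77, 2.11, 1.43 and 0.55 in parental ES. They read -0.08, 0.37, -0.53 and -1.19 in clone #1, -0.13, 0.21, -0.55 and -1.02 in clone #9, and HoxA9-Ct ES had 1.14, 1.55, 0.73 and 0.09. The clones were close to each other and below both other lines at each probe, and HoxA9-Ct ES was between. The median log2 ratio was -1.88 ± 0.04 in the clones (SD, n = 2) and -0.56 in HoxA9-Ct ES, and 2 of the 5 probes fell in limma (adjusted p = 0.031 and 0.0040). A shorter name inside it, chr2:154244616-154245900, gave -1.91 ± 0.01 over its 3 probes, of which 2 fell in limma (adjusted p = 0.024 and 0.044).

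All 5 probes also agreed at chr12:56607657-56613582 on the forward strand, with a median log2 ratio of -1.70 ± 0.28 in the clones (SD, n = 2) and -0.27 in HoxA9-Ct ES. All 5 were above background in parental and HoxA9-Ct ES. In clone #9 none was above background and in clone #1 2 were, so the fold is a bound at 3 of them (at least 1.88-fold, 3.08-fold and 3.22-fold), and 1 of the 5 fell in limma (adjusted p = 0.016). The 3 probes of chr5:123439974-123448354 on the forward strand were measured in all lines and had mean log2 ratios of -1.74 ± 0.51, -1.62 ± 0.25 and -1.86 ± 0.35 (SD, n = 2), with HoxA9-Ct ES at -0.06, -0.11 and -0.20. None of these passed limma.

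On the reverse strand of chromosome 8, chr8:87504644-87513694 had 4 of 5 probes lower in both clones, with a median log2 ratio of -1.24 ± 0.06 (SD, n = 2) and no limma call. On chromosome 6, chr6:67155508-67216941 had 5 of 8 probes lower on the reverse strand, with a median of -2.05 ± 0.81, and 3 of them fell in limma (adjusted p = 0.014, 0.019 and 0.016). At the 1 of these probes that was above background in all lines, clone #1 was lower than clone #9 (log2 ratios of -2.62 and -1.57), and the brightest pair of probes in the region, at 2.25 and 0.42 in parental ES, had mean ratios of 0.07 and 0.03.

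At several lower regions the clones were dim, and the fold is a bound. At chr13:65716675-65765575 on the reverse strand both probes were above background in parental ES alone, at least 2.79-fold and 3.70-fold above the clones and 2.29-fold and 3.04-fold above HoxA9-Ct ES. The second of these probes is in the end rows. At chr13:98571741-98603323 on the reverse strand 3 probes were lower in the clones (median log2 ratio -1.88 ± 0.68, SD, n = 2) and in HoxA9-Ct ES, with clone #1 not above background at any of them and HoxA9-Ct ES above it at 1 (log2 ratio -1.33). These are the 2 regions of the 23 that met the rule in HoxA9-Ct ES too.

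For both agreeing probes of chr1:88187397-88187862 the bound was 3.95-fold and 1.77-fold, and for those of chr12:12876192-12918398 it was 2.36-fold and 2.04-fold. A bound of 2.54-fold and 1.97-fold held for 2 of the 3 agreeing probes of chr11:68200716-68214458, and 1 agreeing probe gave a bound of 1.46-fold at chr2:132722530-132726802 and of 1.90-fold at chrX:11690182-11690581. The clone signals behind these bounds were not above background, so they are not set against each other. The second agreeing probe of chrX:11690182-11690581 was above background in all lines and had a log2 ratio of -1.93 ± 0.11 (SD, n = 2, adjusted p in limma = 0.041). At chr13:28551902-28975446 each of the 2 agreeing probes was above background in only 1 of the clones. At chrX:50087925-50101700 all 7 probes were below parental ES in both clones, and 2 were past 2-fold in both. Among the 6 of them above background in all lines, the log2 ratio lay between -1.28 and -0.63 in clone #1 and between -2.65 and -1.73 in clone #9, with clone #9 the lower at each. At chr11:68200716-68214458 a further probe was above parental ES in clone #1, by a log2 ratio of 2.88, and not above background in clone #9.

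Over all these regions, the median log2 ratio of the agreeing probes (mean of both clones) ran from 1.14 to 4.12 in the 11 higher regions and from -2.95 to -1.17 in the 23 lower ones. HoxA9-Ct ES ran from -0.02 to 1.44 with a median of 0.58 in the former and from -1.96 to 0.44 with a median of -0.43 in the latter. At the outer ends of the clone ranges, 4.12 and -2.95, the dimmer lines were not above background, so these 2 ratios give no rank. All these ratios share the parental array.

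HoxA9-Ct ES was compared with parental ES by the same rule on its 1 array, so these counts have no replicate check. Of the position-named probes 175 were over 2-fold higher and 162 lower, which is 1.08% and 1.00% where all probes gave 1.12% and 0.812%. Among probes above background in at least 1 line these were 2.76% and 2.55% of the position-named probes and 2.05% and 1.48% of all probes. Agreement of 2 or more probes left 18 higher regions (0.460%, with 0.345% over all names of 2 or more probes) and 5 lower regions (0.128%, with 0.0862%). Of the 175 higher probes, 138 were not above background in parental ES. At chr11:112905201-113062945 on the reverse strand 2 probes were at least 1.44-fold and 3.17-fold higher, and both passed limma (adjusted p = 0.019 and 0.033), and at the second of them the clones were at least 1.47-fold above parental ES. Agreement of 3 higher probes was found at chr1:85304494-85305390, chrX:47890565-47915775, chr2:10237649-10287591 and a region on chromosome 18. At the last of these, the 3 probes were above background in all lines, with HoxA9-Ct ES at log2 ratios of 1.74, 1.04 and 1.18 and the clones at means of 0.22, -0.04 and -0.03, and limma called none. At the first, the bounds for HoxA9-Ct ES were 2.20-fold, 1.52-fold and 1.44-fold, and clone #1 was above background at 1 of the probes and clone #9 at none. The lower regions were the 2 on chromosome 13 given above, chr13:81773237-81783062, chr5:92548501-92566401 and chrX:148720661-148763177.

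Single probes that were above background in all lines gave the following extremes, ranked by the smaller of both clone ratios. The largest upward difference in both clones was at the first probe of chrX:98989930-98994344 given above, and the second probe of that region was among the extremes too. The others were on chromosomes 11 and 8, in regions already described, and at chr1:52706748-52712402 on the reverse strand (log2 ratio 1.29 ± 0.05, SD, n = 2, adjusted p in limma = 0.48). The largest downward differences were at 4 probes of the chromosome 2 locus and at chr15:38630866-38640611 on the forward strand, where parental ES read -0.44 and clone #1, clone #9 and HoxA9-Ct ES read -2.34, -2.55 and -2.31. This probe lies in the end rows and the other 3 lines were level. In HoxA9-Ct ES the highest ratio was 3.58 at a probe of chr3:34003359-34537330 (adjusted p in limma = 2.6e-05), also in the end rows.

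Regions inside or within 1 Mb of the 4 Hox clusters numbered 49, with 185 usable probes. The limits of the clusters on mm9 were set to the nearest 10 kb from general knowledge, because the files place no gene, and moving them by 20 kb either way left the number at 49. Hox-B had 20 regions and 77 probes, Hox-C 15 and 52, Hox-D 10 and 35, and Hox-A 4 and 21. Only Hox-B had regions inside the cluster, 5 with 17 probes. Probes above background in all lines made up 41.6% at Hox-B, 52.4% at Hox-A, 30.8% at Hox-C and 5.71% at Hox-D. Over the whole group 3 of the 185 probes were over 2-fold higher in both clones, which are those of the Hox-B region given above. Of the 185, 11 were lower, where all probes of the array gave 1.03% higher and 0.993% lower. These 11 were 10 near Hox-B and 1 near Hox-D. Those near Hox-B include 3 at chr11:95627874-95640824 forward, 5 on its reverse strand and 1 at chr11:95630200-95631470, names that overlap. In HoxA9-Ct ES 3 were higher and 1 was lower, where all probes gave 1.12% and 0.812%.

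At the 4 other regions inside Hox-B no probe was past 2-fold in both clones. At chr11:96111499-96126224 the 4 forward probes had mean log2 ratios of 0.03 to 0.24 in the clones and 0.23 to 0.57 in HoxA9-Ct ES, and the measured reverse probes -0.45 and 0.26 in the clones. The overlapping chr11:96112907-96125798 on the forward strand gave 0.13 and 0.32. At chr11:96173788-96174352 on the forward strand, next to the region with 3 agreeing probes, 1 of 3 probes was above background and only in the clones, at least 1.51-fold above parental ES. This is the same direction as at its neighbour, and limma did not call it.

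About 409 kb outside Hox-B, both strands of chr11:95627874-95640824 were lower in the clones. On the forward strand all 9 probes above background in parental ES were lower in both clones, with mean log2 ratios from -1.41 to -1.03 and medians of -0.98 in clone #1 and -1.50 in clone #9. The brightest of them read 3.87 for the parental line, 2.93 for clone #1, 2.41 for clone #9 and 3.49 for the HoxA9-Ct line. On the reverse strand all 8 such probes were lower, with mean ratios from -1.49 to -0.78 and medians of -1.01 and -1.55. HoxA9-Ct ES was lower than parental ES at every one of these 17 probes, with median ratios of -0.38 on the forward and -0.58 on the reverse strand, so the order of the lines was the same throughout. The 3 probes of chr11:95630200-95631470, a name inside the same stretch, gave -1.13 to -0.94. Limma called none of these probes (smallest adjusted p = 0.33 on the forward and 0.26 on the reverse strand). At the next position, chr11:95644899-95658549, the measured probes had mean ratios of 0.02 on the forward and -0.10 to 0.85 on the reverse strand. A single probe was measured in all lines at each of the 4 remaining regions near Hox-B that had a probe above background, with mean ratios of 0.36 at chr11:95657291-95657772, -0.29 at chr11:95573399-95587949, -0.55 at chr11:95561419-95574068 and -0.09 at chr11:95113972-95114267, and limma called none of them.

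Farther out, at chr11:95098115-95098494 on the forward strand, the single probe was above background in parental ES alone (-3.25, with -6.69, -6.87 and -6.49 in the clones #1 and #9 and the HoxA9-Ct line), at least 2.42-fold above the clones and 1.98-fold above HoxA9-Ct ES. It fell in both comparisons in limma (adjusted p = 1.1e-07 and 0.00031), and no second probe reads this name.

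Next to Hox-A, chr6:52046805-52072744 ends 27.3 kb from the cluster and is expressed from both strands. Its 6 forward probes had mean log2 ratios from -0.05 to 0.41 in the clones and from -0.29 to -0.10 in HoxA9-Ct ES, and the 5 of its 9 reverse probes above background in all lines -0.02 to 0.76 and -0.30 to 0.19. None passed limma. The other 2 regions near Hox-A had no probe above background in any line. At Hox-C, 11 of 15 regions had a probe above background, no probe was past 2-fold in both clones, and mean ratios of probes measured in all lines lay between -0.38 and 0.31. On the forward strand these were chr15:102100397-102105872 (-0.14 to 0.26), chr15:102100964-102104552 (-0.09 and 0.01), chr15:102932714-102935033 (-0.12) and chr15:102947390-102971082 (-0.05). On the reverse strand they were chr15:102026122-102033597 (-0.19 and -0.05), chr15:102026122-102033725 (-0.38 to 0.31), chr15:102032892-102033838 (0.19 and 0.31), chr15:102100397-102105872 (0.04) and chr15:102947390-102971082 (0.12). Several of these names overlap. A probe of chr15:102920547-102933472 on the forward strand was above background in clone #9 and HoxA9-Ct ES alone, the latter at least 1.42-fold above parental ES. A single probe of chr15:102994998-102995947 on the reverse strand was at least 1.79-fold higher in the HoxA9-Ct line than in the parental one (adjusted p in limma = 0.0022), and it lies in the end rows. The other 2 probes of this region were dim in every line.

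All regions near Hox-D are 834.5 kb or more from the cluster. At chr2:75444518-75497268 on the reverse strand 2 probes agreed upward in HoxA9-Ct ES. They were above background in that line alone, at least 2.34-fold and 1.45-fold above parental ES, and limma called neither. A further 2 probes, above background in parental ES, read -3.66 and -3.43 there, -4.95 and -5.47 in clone #1, -3.93 and -5.21 in clone #9, and HoxA9-Ct ES had -3.14 and -3.22. The second of them fell in the clones (adjusted p in limma = 0.045, at least 2.13-fold), and 2 of the 6 probes differed between the clones and HoxA9-Ct ES in limma (adjusted p = 0.015 and 0.0018). The probe of chr2:75447045-75447244, inside this region, read -3.05, -4.73, -4.01 and -2.12 in parental ES, clone #1, clone #9 and HoxA9-Ct ES, and differed between the clones and HoxA9-Ct ES as well (adjusted p in limma = 0.0066). At chr2:75481116-75481679 the 2 probes measured in all lines had mean ratios of 0.09 and -0.41, and at chr2:75496518-75496992 the 1 probe above background in parental ES had 0.07, both on the reverse strand and with no limma call.

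For comparison with noncoding RNAs that the array names by transcript, 2 of 14 listed RNAs of the Hox clusters had a probe. Hoxa11os, the antisense transcript next to Hoxa11, read -3.15 for the parental line, 3.41 for clone #1, 2.54 for clone #9 and -3.50 for the HoxA9-Ct line and rose in limma (log2 ratio 6.12), while Hoxd3os1 was dim in every line. Of 44 other named long noncoding RNAs 27 were measured, 17 were above background in all lines and their median log2 ratio was -0.20, where all probes above background gave -0.07. Limma called 0 of these 27 higher and 1 lower, Gnasas1 (formerly Nespas), an antisense RNA of the imprinted Gnas locus. Gnasas1 read -3.05 for the parental line, -3.24 for clone #1, -6.63 for clone #9 and -3.04 for the HoxA9-Ct line (adjusted p in limma = 0.048). It was above background in clone #1 and not in clone #9. The log2 ratio was -0.20 in clone #1 and -3.59 in clone #9, so the call rests on clone #9 and is not a fall in both clones. Malat1, a nuclear RNA of most cells, had 0.07. Meg3 and Mirg, from the imprinted Dlk1-Dio3 locus, had means of -1.34 and -1.28 and did not pass the test. The log2 ratio of Meg3 was -0.73 in clone #1 and -1.95 in clone #9, and that of Mirg was -0.57 and -2.00.

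The lines kept their label as ES cells, since all 9 ES cell markers, among them Pou5f1 and Nanog, were above background in every line and limma called none of them in the clones. Of 6 primitive endoderm markers, whose median log2 ratio in the clones was 1.83, Gata6 and Sox17 rose in limma (log2 ratios of 2.38 and 2.01, adjusted p = 0.0028 and 0.026). Gata4, Dab2 and Sox7 had ratios of 1.88, 1.78 and 1.41 and did not pass, and Lama1 had 0.12. In HoxA9-Ct ES Sox17 was not above background and fell (adjusted p in limma = 0.0023). The summed level of the 6 was 34.5 times the array's 75th percentile for the parental line, 41.3 for clone #1, 39.1 for clone #9 and 16.5 for the HoxA9-Ct line, most of it from Lama1, whose log2 signal was 5.07, 5.25, 5.13 and 4.01. Of 4 trophectoderm markers 3 rose, with a summed level of 1.28, 3.48, 5.13 and 1.89 in the same order. These were Cdx2, Elf5 and Krt8 (log2 ratios of 3.08, 2.33 and 2.42), while Eomes had 0.34. Cdx2 and Elf5 were not above background in parental ES, and Elf5 was not in clone #9. Krt8 lies in the end rows and made up most of the rise of the sum in the clones. Its log2 signal was -0.81, 1.13, 2.09 and -0.19. For the feeder, mesoderm and neural lists the summed levels were 7.69 to 17.8, 7.38 to 10.5 and 1.18 to 1.59. Of these lists 1 of 6, 0 of 3 and 0 of 3 rose, while Pax6 of the neural list fell. The feeder list gene that rose was Pdgfra (log2 ratio 2.70, adjusted p in limma = 0.00029), which was not above background in parental ES. Most of the feeder sum came from Thy1, whose log2 signal was 2.89, 3.18, 4.06 and 3.36, and most of the mesoderm sum from Kdr. Postn, T and Mixl1 were dim in every line. The part of such cells in the differences of the regions was not tested, and in bulk RNA more cells of a type and more RNA per cell cannot be told apart.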

How the data were processed

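Total RNA of the 4 ES lines was labelled with Cy3 and hybridised to SurePrint G3 Mouse GE 8×60K arrays on the same slide, read in 1 scan. Per the labels, the authors used Agilent Feature Extraction 10.10.1.1 for the images, and the deposited scanner files hold an intensity per spot, background-subtracted and detrended, with flags. The deposited series matrix holds the same intensity times 1 constant per array.

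From these, log2 values relative to the 75th percentile of the 59305 spots outside the controls were computed, without spots marked as outliers. The share of spots well above background ran from 49.9% to 53.0%, and the number of arrays limits the precision. The comparisons used limma 3.58.1 (R 4.3.3) over 55562 probes (1 residual degree of freedom, prior SD 0.45, standard error 0.56 for the clones against parental ES and 0.64 for HoxA9-Ct ES). A dim line is given by a bound: the higher of its own signal and the lowest signal called above background. Regions were called from agreement of probes, as described. Regions named are those near Hox clusters with a probe above background, up to 12 agreeing regions in each direction, the 5 brightest, and the probes with the largest differences. Some of the 12 in HoxA9-Ct ES are given as a count.

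The members, lists and tests were chosen with earlier results of these data known. Cluster limits replace the planned gene positions, since the files place no gene and the gene table is on another build, where it was used for symbols only. Alternatives were other scalings, a background correction on the median spot signal (the files hold no mean), filters on dim probes, other fold limits and windows, and leaving out a clone.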

Additional observations from a re-analysis of the deposited data

Results flagged for a closer look

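Besides the regions named with a strand, 13 probes carry 3 position names without a strand letter and enter no comparison above. At chr17:12941161-12944859, 1 of 5 such probes was above background in both clones, more than 2-fold higher in each, and not above background in parental ES. Its log2 signal was -5.91 for the parental line, -3.55 for clone #1, -3.39 for clone #9 and -4.36 for the HoxA9-Ct line, a log2 ratio of 2.44 for the mean of the clones (adjusted p in limma = 0.0019) and a bound of at least 1.75-fold. A second probe of this name, above background in clone #9 alone, is located in the highest eighth of spot row numbers. It read -6.44, -4.33, -3.51 and -4.70 in the same order, a log2 ratio of 2.52 (adjusted p in limma = 0.0011). Clone #1 was not above background there, so no bound is given for the mean of the clones. The probe of this name that was above background in all lines had ratios of 0.45 for clone #1, 1.01 for clone #9 and -0.06 for the HoxA9-Ct line. At the 2 other names the probes above background in all lines had mean ratios between -0.38 and 0.21.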

How the results depend on the processing

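Scaling to the 75th percentile over probes above background in all lines called 791 probes in the clones against parental ES, 409 in HoxA9-Ct ES against parental ES and 915 between the clones and HoxA9-Ct ES, in place of 211, 72 and 214. Quantile normalization and a test of probes above background in at least 1 line each gave 0 in all of these comparisons, and normexp gave 101, 9 and 85. In HoxA9-Ct ES a floor on low signals gave 33, leaving out the last eighth of the spot rows 44, and a trended robust fit 40. With normexp, 3 probes were higher and 12 lower in both clones, with 1 and 2 agreeing regions, and 1 and 0 in HoxA9-Ct ES. With the floor these were 31 higher probes, 6 higher regions, and 7 higher and 3 lower regions in HoxA9-Ct ES. At 1.5-fold, 173 probes were higher and 575 lower, with 25 and 97 regions, and 61 and 44 in HoxA9-Ct ES. At 4-fold, 18 and 48 probes, 3 and 0 regions, and 2 and 0 in HoxA9-Ct ES were left. Scaling to the median gave 8 lower regions in HoxA9-Ct ES. Agreement asked only of probes above background in all lines, chosen after seeing the data, left 3 higher and 8 lower regions, and 4 and 1 in HoxA9-Ct ES. With 1 clone left out, 213 to 339 probes were higher and 341 to 478 lower, with 24 to 56 and 46 to 81 regions. A positive and significant signal gave 1894 expressed regions, and windows of 100 and 2000 kb gave 13 and 75 regions near Hox clusters. The cause of these changes was not tested. Of 662 recomputed ratios of named regions and probes, 562 stayed within the spread, 99 moved and 1 turned: HoxA9-Ct ES at chrX:148720661-148763177 had a log2 ratio of 0.012 with normexp. Of the 70 ratios, normexp moved 50 besides the 1 that turned, and the floor moved 26. The series matrix values and the filter on at least 1 line leave a ratio as it was, so their 70 each carry no information. Leaving out a clone is judged against the spread between the clones, so it could seldom move a ratio past it. The median log2 ratio of all probes in the clones was -0.18, and -0.01 after quantile normalization. Limma could not be fitted without a clone, since no residual degree of freedom is left. No paired analysis was possible, because each line has 1 array and the labels pair no arrays between the groups.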
